A study of Mus musculus with 6 samples.

Results

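Genes of antimicrobial and acute-phase defence were compared between primary mouse keratinocytes that lacked C/EBPβ and wild type cells after UVB. The set comprises 10 genes, taken by symbol from a table of 55416 genes, and all 10 had a row. They are S100a8, S100a9, Lcn2, Slpi, Saa3, Defb1, Defb14, Pglyrp1, Hp and Lyz2. Keratinocytes, the cells that build the epidermis, were isolated from the skin of pups 1 to 2 days old on a C57BL/6J:129 hybrid background. The groups were wild type and Cebpb knockout cells, with 3 libraries each (wild type 1, 2 and 3, knockout 4, 5 and 6). All cells of both groups were held in 0.05 mM calcium, irradiated 5 days after plating under a 312 nm lamp (UVB, 10 mJ/cm2), and collected 8 h later. Unirradiated cells are not analysed here, so the values describe a genotype difference after UVB and not induction by UVB. The labels call the pups knockout and name no promoter or Cre that would restrict it. The labels do not tell if the 3 libraries per genotype are of different pups or cultures, and p-values therefore measure the spread between these libraries, which may be technical.

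The epidermis makes proteins that kill microbes or starve them of metals, and wounded or inflamed skin makes more of them. S100A8 and S100A9 pair to form calprotectin, which withholds zinc and manganese, and lipocalin 2 captures the siderophores with which bacteria collect iron. Acute-phase proteins such as serum amyloid A and haptoglobin are made mostly by liver, with C/EBP factors and NF-kB among their regulators. C/EBPβ is also known as NF-IL6, after its binding to the gene of interleukin 6, a cytokine that drives the acute-phase response.

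The sequences before the gene start are shown first, because several members are described elsewhere as targets of C/EBP factors. RefSeq promoter windows were matched by symbol for 7 of the 10 members, and Defb1, Defb14 and Hp had no entry. Each window holds the 250 bases before the annotated start, 5′ to 3′ on the gene's strand, in the build GRCm38.p6. The authors counted on a later build, and no count rests on these positions. In the first 4 sequences the capitals mark a match to the C/EBP motif TTGCNNAA on either strand. In Pglyrp1 they mark a match to the NF-kB consensus, and S100a8, the partner of S100a9, has neither and stands in lower case.
Slpi, chr2:164356508-164356757, minus strand: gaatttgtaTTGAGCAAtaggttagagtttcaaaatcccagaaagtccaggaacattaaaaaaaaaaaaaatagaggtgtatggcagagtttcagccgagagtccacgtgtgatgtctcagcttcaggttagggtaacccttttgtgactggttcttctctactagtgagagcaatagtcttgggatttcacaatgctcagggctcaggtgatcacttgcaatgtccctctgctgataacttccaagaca
Saa3, chr7:46715677-46715926, minus strand: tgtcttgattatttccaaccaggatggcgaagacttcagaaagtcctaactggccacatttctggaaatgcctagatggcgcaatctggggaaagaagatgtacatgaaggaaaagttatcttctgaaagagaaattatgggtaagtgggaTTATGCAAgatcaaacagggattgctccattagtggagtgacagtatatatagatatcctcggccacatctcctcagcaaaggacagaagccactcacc
Lcn2, chr2:32387740-32387989, minus strand: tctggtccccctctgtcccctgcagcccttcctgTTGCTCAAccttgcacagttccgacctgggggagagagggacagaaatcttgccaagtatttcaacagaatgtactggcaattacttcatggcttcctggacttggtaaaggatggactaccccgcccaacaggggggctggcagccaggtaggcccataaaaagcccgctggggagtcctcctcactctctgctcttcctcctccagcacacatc
S100a9, chr3:90695722-90695971, minus strand: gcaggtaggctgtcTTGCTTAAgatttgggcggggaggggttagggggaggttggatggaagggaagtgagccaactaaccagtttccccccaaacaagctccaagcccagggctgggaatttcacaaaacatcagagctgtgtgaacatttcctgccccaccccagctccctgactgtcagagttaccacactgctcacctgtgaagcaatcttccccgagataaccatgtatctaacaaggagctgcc
S100a8, chr3:90668821-90669070, plus strand: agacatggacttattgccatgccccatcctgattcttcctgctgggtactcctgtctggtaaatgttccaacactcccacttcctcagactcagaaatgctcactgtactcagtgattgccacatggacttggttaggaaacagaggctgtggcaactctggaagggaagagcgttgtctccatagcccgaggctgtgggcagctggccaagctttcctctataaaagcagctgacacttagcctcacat
Pglyrp1, chr7:18884440-18884689, plus strand: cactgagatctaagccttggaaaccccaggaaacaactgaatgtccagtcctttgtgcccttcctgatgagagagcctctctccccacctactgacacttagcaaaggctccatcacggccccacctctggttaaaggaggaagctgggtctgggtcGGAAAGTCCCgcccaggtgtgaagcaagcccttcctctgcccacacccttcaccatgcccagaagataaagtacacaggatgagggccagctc

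The motif TTGCNNAA, searched on both strands, was present in 4 of the 7 member windows and in 9.56% of all 32851 windows of the same length in the table. Counted from the start, its matches began at -241 in Slpi, -236 in S100a9, -216 in Lcn2 and -99 in Saa3. A looser form, TTNNGNAA, was present in 6 of the 7 and in 36.8% of all windows. Any stricter match meets it on the opposite strand by its letters, so 4 of the 6 followed from the stricter search. The full palindrome TTGCGCAA occurred in 0 of the 7 and in 0.164% of all windows. The NF-kB consensus was found in 1 of the 7, Pglyrp1, where it began at -93, against 7.25% of all windows. The members were chosen as known C/EBP targets that could separate from NF-kB targets, so these shares are no independent evidence. These matches describe letters in a short window, not binding, and binding was not measured.

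**Figure D1:**
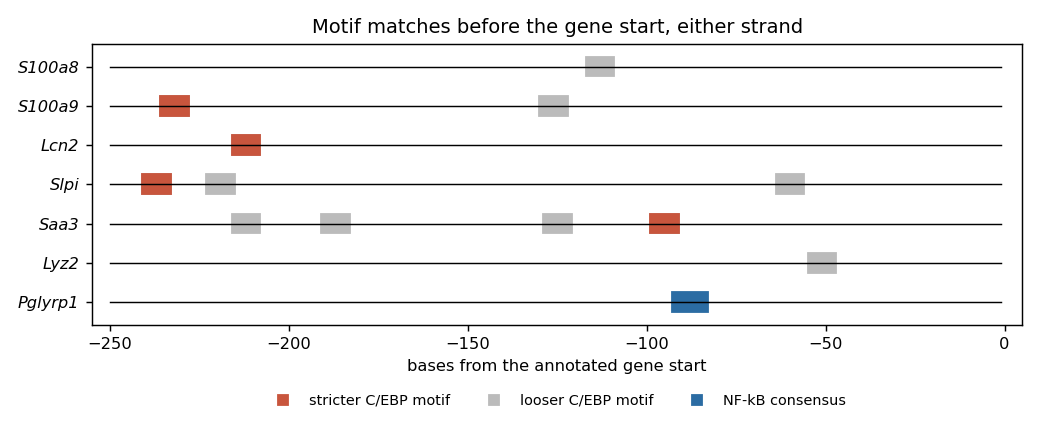
Motif matches in the 250 bases before the annotated start of 7 members, by distance from the start in bases, on either strand. Red boxes mark the stricter C/EBP motif (drawn over the looser one where both match), grey boxes the looser motif and the blue box the NF-kB consensus. Red boxes stand in S100a9, Lcn2, Slpi and Saa3, and the blue box in Pglyrp1.

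The deletion itself showed in the counts. Cebpb stood at 163, 152 and 121 CPM (a gene's counts relative to the library's total, scaled between libraries by TMM, a trimmed mean of log ratios) in wild type libraries 1, 2 and 3, and at 0.819, 1.10 and 0.907 CPM in knockout libraries 4, 5 and 6. Total counts were 81256192 to 122797031 per library, so 3 counts, the floor used here, were worth 0.0369 CPM or less. Uty, Kdm5d, Ddx3y and Eif2s3y, on the Y chromosome, together reached 60.7 to 68.1 CPM in wild type and 0.101 to 0.158 CPM in knockout libraries, so the sex make-up of the cultures ran with genotype and the 2 cannot be told apart in any gene below. Strain alleles of the hybrid background were not compared between the groups, so strain differences linked to Cebpb could not be told apart from its deletion either. Keratinocyte markers were abundant in every library, with a summed level of 46236 to 51421 CPM in wild type and 27955 to 28849 CPM in knockout cells, and 10 of the 12 were lower. Melanocyte markers summed to 695 to 783 and 607 to 688 CPM, and Langerhans and dendritic cell markers to 152 to 171 and 185 to 194 CPM, of which Mfge8 made up most. Fibroblast and T cell markers each summed to 6.53 CPM or less.

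Most of the defence genes were much lower in knockout cells. The quasi-likelihood test of edgeR, adjusted over 17659 genes by Benjamini and Hochberg, found that 8 of the 10 members fell, 1 (Pglyrp1) rose and 1 (Hp) had too few counts to be tested. Among all genes tested, 23.7% fell and 24.8% rose, 48.6% together. The log2 fold changes of those that fell ran from -1.18 in Defb14 to -6.84 in Saa3. The members' summed level was 401, 336 and 331 CPM in the wild type libraries and 33.0, 43.2 and 45.7 CPM in the knockout libraries. In 9 of the 9 members tested the groups did not overlap, as in 56.4% of all genes tested. Saa3 and Lyz2 passed the filter on low counts through the wild type libraries alone, so the filter itself favoured a lower value there. Of the 7 members that passed in both groups, 6 fell and 1 rose, and 4 fell by at least 2 log2 units, as did 2.22% of all genes tested. That share also covers genes that passed through 1 group alone, so the 2 bases differ. In bulk RNA, fewer cells that make a transcript and less of it per cell cannot be told apart.

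**Figure D2:**
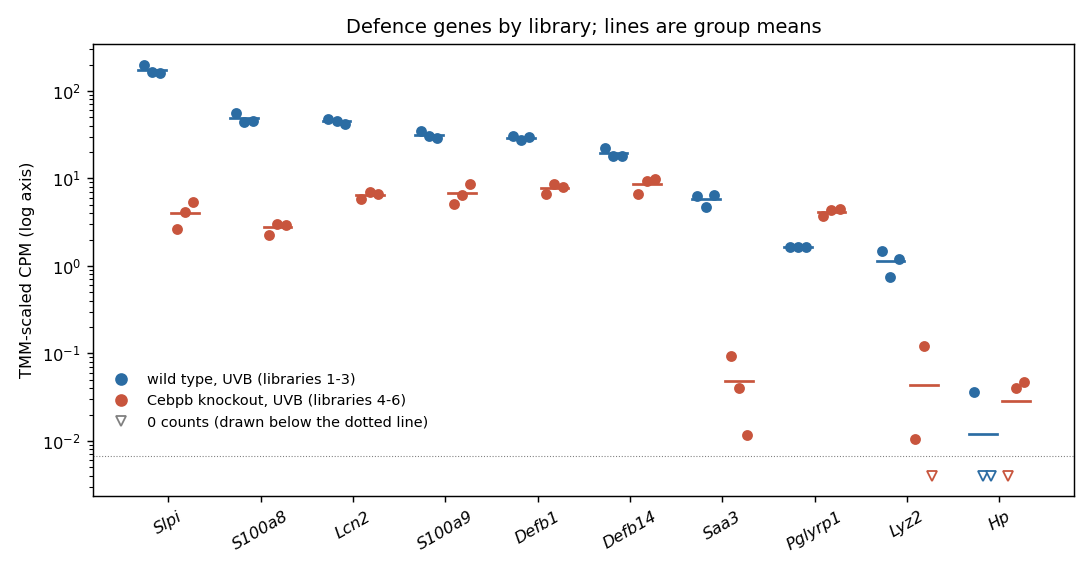
TMM-scaled CPM (log axis) of the 10 members in each library, wild type in blue and knockout in red, with lines at the group means and open triangles for libraries at 0 counts. Blue points lie above the red ones in every gene from Slpi to Saa3 and in Lyz2, below them in Pglyrp1, and mingle with them in Hp.

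The calprotectin subunits fell by unequal amounts. S100a8 (ENSMUSG00000056054) stood at 56.1, 44.5 and 45.1 CPM in wild type libraries 1, 2 and 3 and at 2.26, 3.05 and 2.94 CPM in knockout libraries 4, 5 and 6. Every knockout value was far below the lowest wild type value, and the log2 fold change was -4.14 ± 0.13 (SE, adjusted p = 5.91e-13 by edgeR). S100a9 (ENSMUSG00000056071) went from 35.0, 30.2 and 28.6 CPM to 5.14, 6.49 and 8.63 CPM, a log2 fold change of -2.22 ± 0.15 (SE, edgeR adjusted p = 3.78e-08). The groups did not overlap here either. Within a library, where scaling cancels, there were 1.60, 1.47 and 1.57 counts of S100a8 per count of S100a9 in wild type cells and 0.440, 0.470 and 0.341 in knockout cells. The ratio was thus 3.75 times lower in knockout cells and the order of the subunits' counts reversed. An exact two-sided permutation test of the ratio gave p = 0.10, the smallest that 3 against 3 libraries allow. It was the same for each of 6 ratios computed, also after Benjamini-Hochberg adjustment, and all 6 pairs were picked after their values were seen.

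S100 relatives went both ways. The family encodes small calcium-binding proteins, many from a gene cluster within the epidermal differentiation complex. Of 14 tested in the list, both subunits included, 5 were higher and 5 lower, 4 were not called, and the median log2 fold change was -0.03, or 0.17 with library totals in place of TMM. The 5 higher became 3 with DESeq2 size factors, without wild type library 2, and without knockout library 5 or 6. With library totals 7 were higher, and S100a16, one of the 5 lower, turned to 0.045. The call of S100a16 was also lost with a minimum mean of 1 CPM, and without wild type library 1 or 3 or knockout library 4 or 5. S100a6, an abundant member, rose from 504 ± 57.5 to 901 ± 63.3 CPM (SD, n = 3 each), and S100a1 rose by 0.98. S100a7a, the mouse relative of psoriasin, fell by 0.49, from 66.7 ± 5.72 to 47.6 ± 5.75 CPM. S100a11 was not called, at 1150 ± 32.0 and 1202 ± 67.7 CPM (log2 fold change 0.06, edgeR adjusted p = 0.384), and was called higher with library totals (0.26). Of the 14, 12 passed the filter in both groups, with 4 higher and 4 lower.

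Slpi, the secretory leukocyte protease inhibitor that restrains neutrophil elastase and is itself antimicrobial, was the most abundant member in wild type cells. Slpi (ENSMUSG00000017002) stood at 200, 163 and 158 CPM there and at 2.64, 4.17 and 5.33 CPM in knockout cells. No knockout library came near the wild type range, and the log2 fold change was -5.43 ± 0.24 (SE, edgeR adjusted p = 6.18e-07), or 43.1 times lower. Its protein is built of whey acidic protein domains, and other genes of that kind went both ways. Wfdc5, which passed the filter through the wild type libraries alone, fell from 1.07 ± 0.264 to 0.0432 ± 0.0196 CPM. Wfdc2 rose from 12.7, 13.2 and 10.0 CPM to 57.8, 53.9 and 62.2 CPM (2.28 ± 0.10 log2 units, SE), and Wfdc18, named after its values were seen, rose by 2.58. Of the 6 tested, Slpi included, 3 rose, 2 fell and 1 was not called. The third riser, Wfdc1, lost its call without wild type library 1 (0.74, edgeR adjusted p = 0.0964) or without any 1 of the knockout libraries. There were 12.4 to 15.8 counts of Slpi per count of Wfdc2 in wild type libraries and 0.0456 to 0.0857 in knockout libraries.

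Lcn2 fell with the smallest standard error among the members. Lcn2 (ENSMUSG00000026822) stood at 47.9, 45.2 and 41.8 CPM in wild type and 5.88, 6.93 and 6.61 CPM in knockout cells. The spread within each genotype was small beside the gap, with a log2 fold change of -2.80 ± 0.09 (SE, edgeR adjusted p = 1.48e-12). Genes for its partners did not fall with it. Mmp9, the gelatinase that the lipocalin binds and protects, rose from 46.2, 38.8 and 40.9 CPM to 600, 642 and 730 CPM, and Slc22a17, a receptor for the lipocalin, was not called (2.94 ± 0.485 and 3.65 ± 0.686 CPM, edgeR adjusted p = 0.161), though it was called higher with library totals (0.51).

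Both beta-defensin members, which encode cationic peptides that damage microbial membranes, fell. Defb1 (ENSMUSG00000044748), the constitutive defensin of epithelia, stood at 30.4, 27.6 and 29.9 CPM in wild type and 6.67, 8.63 and 7.87 CPM in knockout cells, without overlap (-1.92 ± 0.11 log2 units, SE). Defb14 (ENSMUSG00000046354), the mouse counterpart of human beta-defensin 3, went from 22.3, 18.0 and 18.1 CPM to 6.58, 9.42 and 9.83 CPM, the smallest fall among the members (-1.18 ± 0.14, SE, edgeR adjusted p = 3.32e-06). The counts of Defb1 per count of Defb14 went from 1.36, 1.53 and 1.65 to 1.01, 0.916 and 0.801. Of 42 beta-defensin genes in the table, 5 could be tested, 4 of which fell and 1 rose. Defb1 and Defb14 were the 2 that passed the filter in both groups. Defb3 and Defb4 passed through the wild type libraries alone and Defb6 through the knockout libraries alone, so the filter favoured the direction of those 3. Defb3 went from 1.08 ± 0.167 to 0.0829 ± 0.0685 CPM, a log2 fold change of -3.65, or -4.57 without knockout library 5. Defb4 fell by 1.80, and its call was lost without wild type library 3 (-1.57, edgeR adjusted p = 0.0515). Defb6 was the exception, with 3, 7 and 4 wild type counts and 55, 137 and 79 knockout counts, a rise of 4.45 ± 0.48 log2 units (SE). Wfdc5, Wfdc1, Defb3, Defb4 and Defb6 were named after their values were seen.

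**Figure D3:**
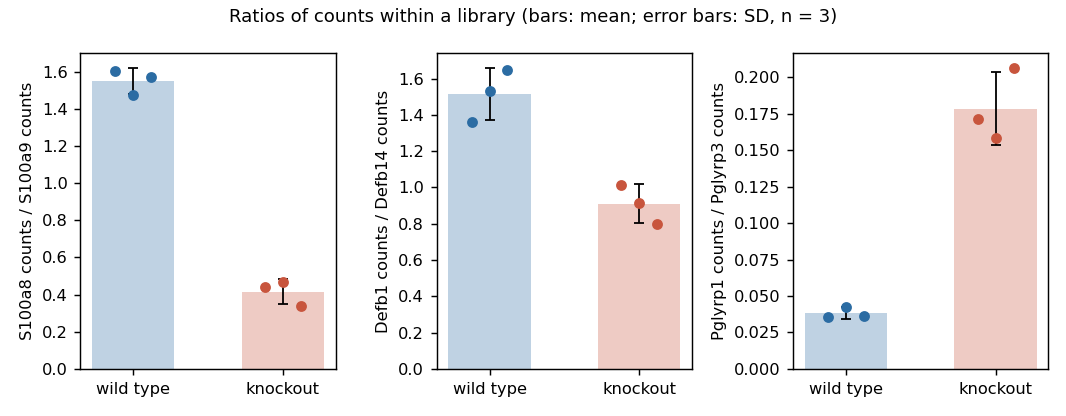
Counts of 1 gene per count of a relative in the same library, for S100a8 over S100a9, Defb1 over Defb14 and Pglyrp1 over Pglyrp3. Points are libraries, bars group means and error bars SD (n = 3 each). The first 2 ratios are lower in every knockout library than in any wild type library, and the third is higher.

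Pglyrp1 was the member that rose. It encodes a peptidoglycan recognition protein, which binds bacterial cell walls. Pglyrp1 (ENSMUSG00000030413) stood at 1.63, 1.63 and 1.65 CPM in wild type and 3.75, 4.33 and 4.42 CPM in knockout cells. All knockout values exceeded all wild type values (1.35 ± 0.16 log2 units, SE, edgeR adjusted p = 2.52e-06). Its epidermal relatives went the other way. Pglyrp3 fell from 43.0 ± 4.30 to 23.6 ± 3.29 CPM (-0.87 ± 0.10 log2 units, SE), and Pglyrp4 from 8.25 ± 1.03 to 6.07 ± 0.970 CPM. The call of Pglyrp4 (-0.44, edgeR adjusted p = 0.0166) was lost with library totals (-0.24, adjusted p = 0.161 by edgeR). It was also lost without wild type library 1 (-0.36, edgeR adjusted p = 0.0606), wild type library 3 (-0.43, edgeR adjusted p = 0.0647) or knockout library 4 (-0.32, edgeR adjusted p = 0.0879). Pglyrp1 had 0.0359 to 0.0428 counts per count of Pglyrp3 in wild type libraries and 0.158 to 0.206 in knockout libraries.

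Of the acute-phase members, Saa3 was nearly lost and Hp was hardly present. Saa3 (ENSMUSG00000040026), a serum amyloid A gene made outside the liver, had 707, 551 and 648 counts in wild type libraries and 9, 4 and 1 counts in knockout libraries. That is 6.34, 4.74 and 6.50 CPM against 0.0945, 0.0403 and 0.0116 CPM, where the last value is 1 read. The log2 fold change was -6.84 ± 0.32 (SE, edgeR adjusted p = 7.35e-11), and -7.70 without knockout library 4. Hp (ENSMUSG00000031722), which encodes haptoglobin, the binder of free haemoglobin, had 4, 0 and 0 counts in wild type and 0, 4 and 4 counts in knockout libraries. At that depth no difference was detectable, and no fold is given.

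Other acute-phase genes were divided. Of 16 tested, 3 rose and 7 fell, 6 were not called, and the median log2 fold change was -0.49. Among the 12 that passed the filter in both groups, 2 rose and 5 fell. Orm1, which encodes the plasma carrier orosomucoid, fell from 5.31, 5.00 and 6.12 CPM to 0.305, 0.303 and 0.326 CPM (-4.13 ± 0.19 log2 units, SE). Orm2 had 21, 39 and 39 counts in wild type and 0 in every knockout library, which is at least 28.2-fold lower against a floor of 3 counts over the group, and it was named after its values were seen. Since the Orm genes are close copies, reads may be divided among them uncertainly. Complement C3 fell from 10.1 ± 0.990 to 2.22 ± 0.0797 CPM. Cd14, the lipopolysaccharide co-receptor, rose from 14.5 ± 0.978 to 26.5 ± 1.97 CPM. Saa1 was not called, at 0.232 ± 0.0719 and 0.0822 ± 0.0753 CPM (log2 fold change -1.46, edgeR adjusted p = 0.0875). It was called lower by limma voom (-1.85) and without knockout library 5 (-2.38). Lbp, which hands lipopolysaccharide to Cd14, held 10 counts in all 6 libraries together and was not tested.

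Lyz2 (ENSMUSG00000069516), the lysozyme gene of macrophages and neutrophils, had 163, 86 and 120 counts in wild type and 1, 12 and 0 counts in knockout libraries. Its level was 1.46, 0.740 and 1.20 CPM against 0.0105, 0.121 and 0 CPM (log2 fold change -4.59 ± 0.64, SE, edgeR adjusted p = 3.42e-05), and the estimate was -5.59 by limma voom. Without knockout library 5 the knockout libraries held 1 count together, and the pooled ratio was 204, with an exact 95% counting interval of 36.4 to 8083. The close copy Lyz1 had 5 counts in 1 wild type library, and reads that match both copies may be assigned uncertainly. Macrophage and monocyte markers were lower too, with 5 of the 7 tested (of 14 listed) lower, 1 higher and 1 not called, and a summed level of 63.9 to 75.8 CPM in wild type and 53.3 to 58.6 CPM in knockout libraries. Of the 5, C1qa, Mrc1 and Laptm5 passed the filter through the wild type libraries alone, which favoured a lower value, and Cd68 and Csf1r passed in both groups. With no filter on low counts 9 were lower, and with a minimum mean of 1 CPM 2 were. Among them Cd68, Cd14 and Csf1r are above 1 CPM, and the other 11, grouped after their values were seen, summed to 1.83 to 2.46 CPM in wild type and 0.168 to 0.595 CPM in knockout libraries, where 3 were at 0. Their part in the result for Lyz2 was not tested.

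Neutrophils are a rich source of calprotectin and lipocalin 2 elsewhere. Ly6g, Camp and Retnlg, which define them, were at 0 in all 6 libraries, and 9 of the 12 markers listed had at least 1 count. The markers summed to 3.91 to 4.70 CPM in wild type and 3.34 to 5.28 CPM in knockout libraries, so the groups overlapped. Of the 4 tested, 2 rose and 2 fell. Mmp8, a collagenase gene, fell from 1.20, 0.972 and 1.18 CPM to 0.0105, 0 and 0 CPM. It had 365 counts in the wild type and 1 in the knockout libraries, a ratio of 312 with an exact 95% counting interval of 55.7 to 12370, and passed the filter through the wild type libraries alone. Cxcr2, a chemokine receptor gene, fell from 2.29 ± 0.272 to 0.786 ± 0.187 CPM (-1.55 ± 0.22 log2 units, SE). Both thus fell with Lcn2 and calprotectin, and their part in those results was not tested. Among the risers, the call of Prtn3 was lost without wild type library 2 (1.53, edgeR adjusted p = 0.0710) or knockout library 4 (1.72, edgeR adjusted p = 0.0734). Ltf, which encodes the iron-binding lactoferrin, rose from 0.757 ± 0.176 to 3.50 ± 1.20 CPM. These marker genes were named after their values were seen.

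**Figure D4:**
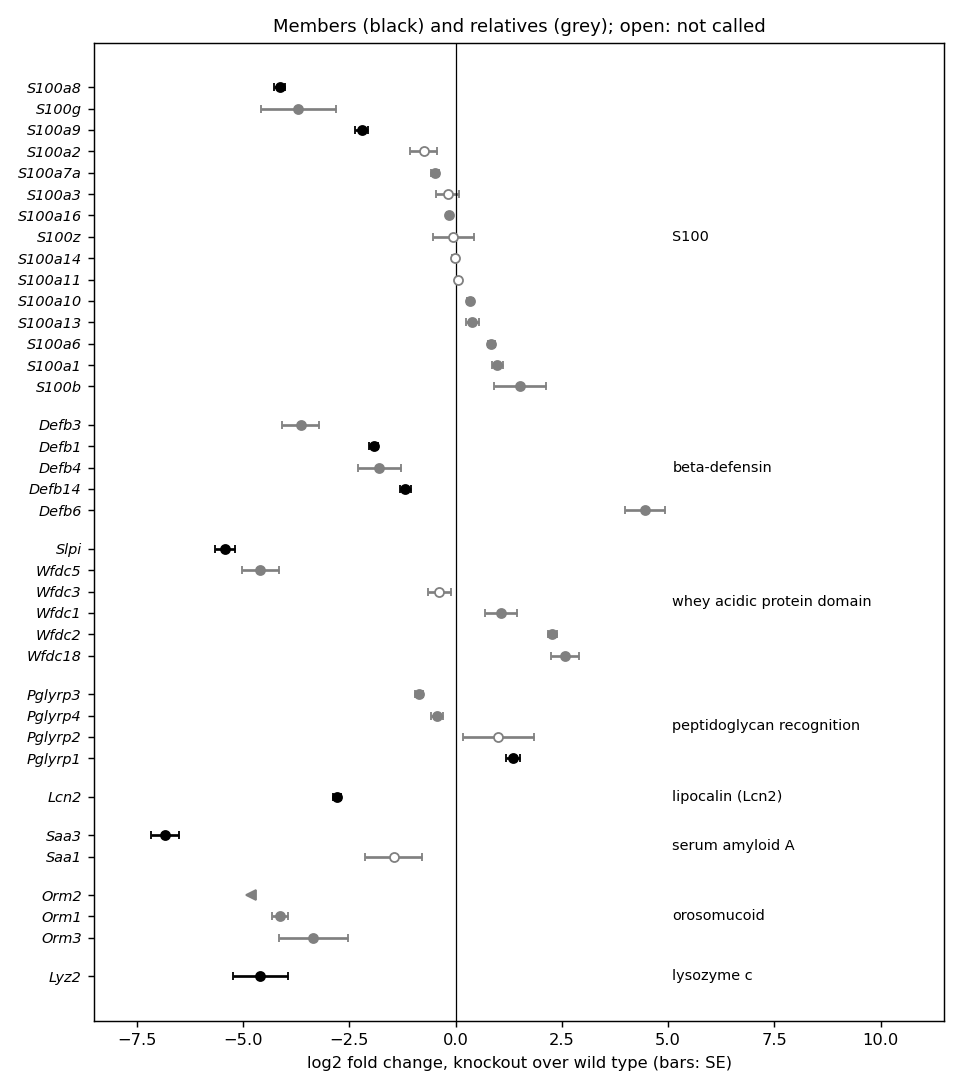
Log2 fold changes (knockout over wild type, bars are SE) of the tested members in black and of their relatives in grey, by family, with open circles for genes that were not called. S100a2, outside the list, was added by its symbol, and the Orm2 triangle marks a bound, since its knockout libraries are at 0. Members and relatives lie on both sides of 0 in the S100, beta-defensin, whey acidic protein and peptidoglycan recognition families (S100a14, S100a16 and S100z change side with library totals).

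Other antimicrobial genes, taken over all families, went both ways. Of 16 tested from that list, 5 rose and 8 fell, 3 were not called, and the median log2 fold change was -0.28 against -2.80 for the members and 0.01 for all genes tested. Among the 11 that passed the filter in both groups, 4 rose and 5 fell. Without knockout library 6 the 5 that rose became 3. Camp, the cathelicidin gene, had no count. Adm, a vasodilator peptide with antimicrobial activity, fell from 49.2, 32.0 and 34.0 CPM to 6.50, 7.96 and 8.66 CPM. Cxcl14, a chemokine of resting epidermis that also kills bacteria, fell from 59.1 ± 1.64 to 22.1 ± 1.80 CPM (-1.42 ± 0.08 log2 units, SE).

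Per kilobase of exon, the order of the members changed between the genotypes. Exonic lengths were the union of exons over all GENCODE M21 transcripts of a gene. With these lengths, wild type cells ranked Slpi first at 147 ± 19.3 CPM per kb, then Defb14 (95.6 ± 12.1), S100a8 (70.0 ± 9.44), S100a9 (59.9 ± 6.36), Defb1 (33.6 ± 1.74) and Lcn2 (17.1 ± 1.16). Saa3, Pglyrp1, Lyz2 and Hp followed at 2.25 CPM per kb or less. Of these neighbours, S100a8 and S100a9 overlapped, as did Pglyrp1 and Lyz2. In knockout cells Defb14 came first at 42.2 ± 8.68 CPM per kb, then S100a9 (12.9 ± 3.37) and Defb1 (8.86 ± 1.14), which overlapped. S100a8, Slpi, Lcn2 and Pglyrp1 came next, between 3.96 and 2.27 CPM per kb, each overlapping the next in order. Slpi thus went from the first place to the fifth. The Defb14 model has 204 bases, so its level per length rests on the shortest model of the set. The longest are those of Lcn2 (2623 bases) and Saa3 (2606 bases). A union can exceed any single transcript, which lowers the level per kb, so the order depends on these lengths.

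Cytokines that induce these genes in skin, and their receptors, were mixed. IL-17, IL-22, IL-1 and IL-36 act on keratinocytes to raise calprotectin, lipocalin and defensins. Of 27 tested, 7 were higher and 12 lower, 8 were not called, and the median log2 fold change was -0.24. The IL-36 gamma gene, listed as Il1f9, fell from 33.9, 30.5 and 33.6 CPM to 5.68, 7.70 and 6.00 CPM. Tnf rose from 4.62, 3.64 and 4.30 CPM to 27.4, 30.7 and 34.5 CPM, and Lif by 2.55 ± 0.07 log2 units (SE). Of the IL-1 genes, Il1a was called higher and Il1b was not called, and the IL-36 beta gene, listed as Il1f8, was called lower. These calls were added after they were seen. The receptor gene Il17ra stood at 52.5 ± 4.39 and 41.4 ± 1.90 CPM and fell by 0.34, a call not made with library totals (-0.15, edgeR adjusted p = 0.132). Other receptor genes, named after their values were seen, moved further and went both ways. Il17rc fell from 93.1 ± 3.83 to 45.7 ± 1.66 CPM, and Il22ra1 (log2 fold change -1.19) and Il1rap (-1.17) fell too. Il17rd (2.32) and Il1r1 (0.55) rose. The cytokine genes Il17a and Il22 had 0 counts in all libraries. Nfkbiz, whose product acts with NF-kB on Lcn2 and defensin genes, stood at 136 ± 22.1 and 115 ± 12.8 CPM, a log2 fold change of -0.24 that was not called (edgeR adjusted p = 0.0913). It was called lower by DESeq2 (-0.25), with no filter on low counts (-0.24), and without wild type library 2 (-0.33) or knockout library 6 (-0.33).

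On the side of receptors and binding partners, 5 of 12 tested genes rose, 1 fell and 6 were not called. Tlr4, a receptor of calprotectin, was at 0.813 ± 0.0500 and 1.10 ± 0.458 CPM and was not called (edgeR adjusted p = 0.231). Anxa2, an annexin that binds S100 and SLPI proteins, rose from 1997 ± 97.4 to 3322 ± 140 CPM. Plscr1, a scramblase that binds SLPI, rose by 2.08 ± 0.11 log2 units (SE).

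NF-kB target genes, set beside the members, were mostly higher. Of 38 tested, 30 rose and 2 fell, 6 were not called, and the median log2 fold change was 1.11. Tnf, Lif, Il1b and Mmp9 are counted here and also in the lists of cytokines or partners above, so the lists are not separate observations. The list was written with earlier results of these data known, and its direction is no independent evidence. Lcn2 and the serum amyloid A genes, named above with NF-kB among their regulators, stand outside it. The contrast with the members thus depends on how genes were assigned to lists. Among the 33 that passed the filter in both groups, 27 rose and 2 fell. Some calls of risers were lost too. Without wild type library 3 these were Cxcl2, Traf1, Cd83 and Gadd45b (edgeR adjusted p = 0.0852, 0.0525, 0.0766 and 0.106), named for that. Each lost its call in other alternatives as well. The genes that fell, named for that, were Sod2, which library totals left uncalled (-0.11, edgeR adjusted p = 0.204), and Ptgs2, whose call was lost without wild type library 1 (-0.79, edgeR adjusted p = 0.0533) and when no gene was filtered out (-0.95, edgeR adjusted p = 0.0687). Csf1, a macrophage growth factor, rose from 9.97, 10.4 and 11.4 CPM to 187, 191 and 167 CPM. Cxcl1, a neutrophil chemokine, rose from 11.9, 9.46 and 10.9 CPM to 53.8, 63.7 and 77.1 CPM. Tnfaip3 and Nfkbia, which encode feedback inhibitors, rose by 1.11 ± 0.11 and 0.46 ± 0.07 log2 units (SE). Within libraries there were 0.308 to 0.317 counts of Lcn2 per count of Nfkbia in wild type and 0.0309 to 0.0348 in knockout cells. For Slpi per count of Mmp9 the range was 3.87 to 4.32 in wild type and 0.00440 to 0.00729 in knockout cells. Pglyrp1 was the member on the same side of 0 as most genes of that list.

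**Figure D5:**
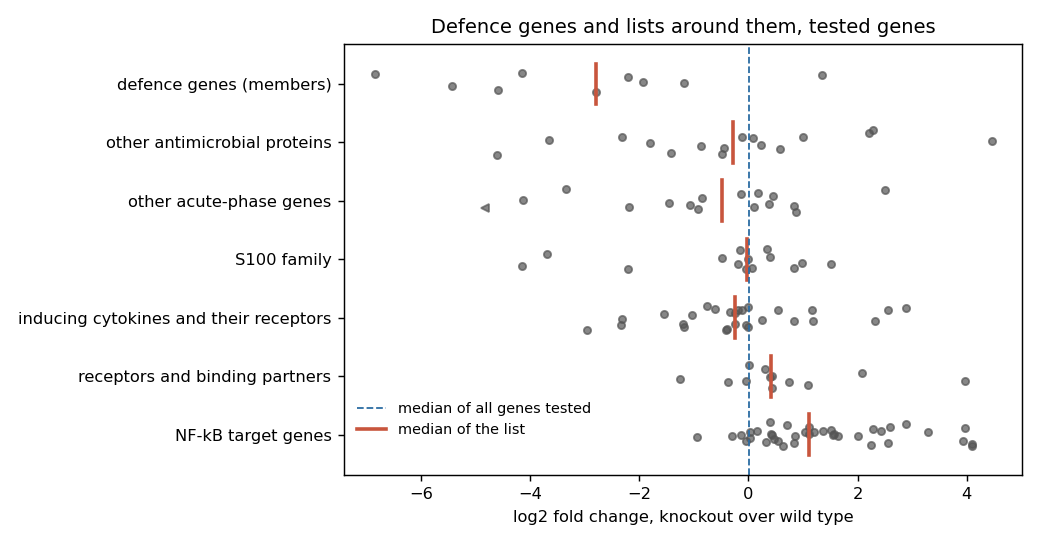
Log2 fold changes (knockout over wild type) of tested genes in the member set and 6 lists around it, 1 point per gene. Red lines are list medians, the dashed blue line is the median of all genes tested, and a triangle marks the Orm2 bound. The members lie mostly left of the dashed line (median -2.80) and the NF-kB targets mostly right of it (median 1.11).

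The other C/EBP factors changed little beside Cebpb. Cebpa, which shares its binding motif and is the most abundant of the family here by counts, fell by 0.48 ± 0.09 log2 units (SE), from 358 ± 33.5 to 258 ± 36.8 CPM. Cebpg rose by 0.23, a call lost without wild type library 2 (0.16, edgeR adjusted p = 0.0745) and without knockout library 5 (0.21, edgeR adjusted p = 0.0530) or 6 (0.21, edgeR adjusted p = 0.0526). Of the 5 tested, the deleted Cebpb included, 1 rose, 2 fell (Cebpb and Cebpa) and 2 were not called.

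Genes with profiles most like those of the members were found by the distance between log2 CPM profiles over the 6 libraries, each centred on its mean. Since genotype dominates these profiles, a small distance mostly reflects a similar fold. Nearest to S100a8 were Epgn, an EGFR ligand, and Hpgd, which inactivates prostaglandins. Lcn2 was most like Xdh, the xanthine oxidoreductase gene, which went from 50.4 ± 2.90 to 6.91 ± 0.452 CPM. The nearest to Slpi was Lce1i, a late envelope gene with close copies, and to Defb1 the tubulin gene Tubb2a. Casp14, the caspase of cornifying cells, came second for Defb1, at 60.4 ± 5.04 and 14.8 ± 1.11 CPM. Saa3 had Rpl10a-ps2 and the transglutaminase gene Tgm3, and S100a9 had Gm4610 and Mmp10, a stromelysin gene. Defb14 had Socs2, a suppressor of cytokine signalling. Pglyrp1, the riser, was most like Parp3 and Inhbb, an activin subunit gene. For Lyz2 the nearest gene, Ndufa4l2, lay 1.60 log2 units away, farther than for any other member.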

How the data were processed

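Total RNA of 6 libraries was sequenced as 150 bp paired reads, per the labels' protocols. The authors deposited raw counts of reads per gene. The builds mm39 and GRCm39 and the tools STAR, HTSeq, FastQC and DESeq2 are listed per the submitters' processing notes. The sources used here do not give their versions, the annotation or the strand setting, so reads of overlapping or antisense genes cannot be told apart. In GENCODE M21, Slpi was the only member whose exons overlapped another gene, Mir7678 on the same strand, with 0 to 3 counts per library. Symbols were matched by identifier for 52083 of 55416 genes, and 1 column belonged to each library.

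The deposited counts were tested with edgeR's quasi-likelihood test (edgeR 4.0.16, limma 3.58.1, DESeq2 1.42.0, R 4.3.3) with genotype as the factor, filterByExpr (minimum 10 counts, 17659 genes left), TMM and Benjamini-Hochberg adjustment over all genes, at 0.05. Standard errors are the log2 fold change over the square root of F. Tested on simulated data for this comparison (17410 genes), the fit recovered 93.5% of 46 genes lowered and 98.0% of 50 genes raised by 1 log2 unit. The simulation gave every gene the same spread beyond counting error and changed few genes, whereas 48.6% were called in the data. Recovery of genes with few counts or a large spread may therefore be lower. Intervals and floors cover counting error only.

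Members and lists were chosen with earlier results of these data known. Named were all members, Cebpb, the 3 genes with the smallest p of each list above 1 CPM, 11 genes set by hand, and for likeness the 2 nearest genes of at least 2 CPM. Further relatives, partners and markers were named after their values were seen. Alternatives were DESeq2 size factors, library totals, no filter, a mean of 1 CPM, DESeq2, limma voom and leaving out each library.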

Additional observations from a re-analysis of the deposited data

How the results depend on the processing

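No paired analysis was possible because the wild type libraries are numbered 1 to 3 and the knockout libraries 4 to 6, with no number in common. Each of the 9 tested members kept its direction and its call under every alternative that could test it; Lyz2, below 1 CPM, was not tested under that minimum. Library totals moved the median of all genes from 0.01 to 0.21 log2 units, the calls over all genes from 4387 higher and 4192 lower (51.1% higher) to 6477 and 2453 (72.5% higher), and to 9 higher among receptors and partners, 3 higher in the C/EBP family and 1 lower among NF-kB targets. Under library totals the sign turned for 20 genes of the lists and families, 14 of them called in neither fit. The other 6 were S100a14 (0.19), S100a16 (0.045), Grn (0.16), Stat3 (0.19), Myd88 (0.18) and Pmel (0.026). That setting adds about the same to every gene, and these lie near 0. DESeq2 size factors left 3 S100 genes higher. With no filter on low counts 2 receptors and partners were lower. The 1 CPM minimum, which tests fewer genes, gave 2 C/EBP genes higher, and 5 other antimicrobial, 4 acute-phase and 3 S100 genes lower. Leaving out 1 library in turn gave 1 to 2 lower NF-kB targets, 3 to 4 higher S100 genes, 0 to 1 higher C/EBP genes and 3 to 5 higher antimicrobial genes outside the member set. Depth limits Hp, Saa3 and Lyz2, which have 0 to 12 counts in each knockout library.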
